A study of Mus musculus with 29 samples.

Results

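The 10 genes described here are those whose transcript levels set NSG brains apart from all other brains in the series: Eno1b, Tpm3-rs7, Gm10260, Gm614, Serpina3m, Pttg1, Crym, Trim12a, Ccl21b and Atp6v0c. They were chosen by their measured counts, as genes that differed between all 7 NSG samples and the 22 other samples, with stroked and non-stroked tissue taken apart. The 10 symbols correspond to 12 of the 25746 genes in each count table, since Ccl21b is listed 3 times, and 10 of these 12 were among the 17031 genes with enough counts to be tested. RNA came from the cortex of adult mice of both sexes, 21 days after a photothrombotic stroke to the right sensorimotor cortex, or from control tissue, here called non-stroked. The labels mark the latter only as control, and the study describes it in one place as the contralesional site and in another as tissue of non-stroked littermates, so that its source is uncertain. The 8 groups were non-stroked WT (n = 4), Rag2-/- (n = 3) and NSG (n = 4) tissue, and stroked WT (n = 4), WT with tacrolimus from the day of stroke (acute, n = 3), WT with tacrolimus from a later start (delayed, n = 5), Rag2-/- (n = 3) and NSG (n = 3) tissue. All mice other than NSG had a C57BL/6J background, as the study states it. WT mice came from a commercial supplier, and Rag2-/- and NSG mice were bred at the institute. Rag2-/- mice lack the recombinase that mature T and B cells need. NOD scid gamma (NSG) mice carry the scid change in Prkdc and a disrupted Il2rg on the NOD background, so that strain background and immunodeficiency alleles cannot be told apart in any comparison of NSG with the rest. The labels tie no sample to an animal, and all were tested as separate samples. The p-values measure the spread between these samples, which may be partly technical.

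Total counts ranged from 17789044 to 43403413 per sample. The sample titles carry 1 of 2 prefixes, and the 20 samples titled Imm2 were sequenced more deeply than the 9 titled TF. All non-stroked, Rag2-/- and NSG samples were Imm2, the WT stroke group was mixed 2 and 2, and the delayed tacrolimus group was all TF. The Y-linked gene Ddx3y was above 100 counts in 4 of 4 non-stroked NSG and WT samples. It was above 100 in 1 of 3 stroked NSG, 2 of 4 stroked WT and 0 of 5 delayed tacrolimus samples, so that sex and stroke were not balanced. All 9 TF samples had 0 Ddx3y counts, and all Imm2 samples of WT mice were above 100. In WT mice, treated or not, the title prefix and sex therefore cannot be told apart. The sum of 5 neuronal markers was between 4045 and 7514 CPM (counts of a gene per 1000000 counts of the library, adjusted for library composition) in every sample, and these markers were present in all brains. The T cell markers Cd3e and Cd8a had 0 counts in all non-stroked NSG samples and at most 1 count in stroked NSG samples, and at most 2 counts in Rag2-/- samples. Prkdc and Il2rg, the genes altered in NSG mice, were still counted in NSG tissue, at 31.2 ± 3.84 and 0.855 ± 0.154 CPM without stroke (SD, n = 4). Their counts therefore did not check the strain labels, and Rag2 itself was at 0 in all but 1 sample, which had 2 counts. The sum of 5 microglial and macrophage markers lay at 207 to 241 CPM in non-stroked NSG and at 154 to 187 CPM in the other non-stroked samples. Of the 5, 2 were called higher against non-stroked WT, P2ry12 and Tmem119. Against non-stroked Rag2-/- samples P2ry12 was called higher and Tmem119 was not. In 2 of 3 acute tacrolimus samples the stroke-responsive gene Serpina3n stood at 37.1 and 12.3 CPM, against 146 CPM in the third and 94.3 to 206 CPM in stroked WT samples. These 2 are also the only samples of the series whose deposited table has a name that differs from the sample title, so that their identity is in doubt, and they were kept in the group that the labels give. The part of these differences in the results below was not tested.

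Inbred mouse strains differ in single bases, in deletions and in the copies of genes they carry. A retrogene is an intron-less copy of a gene, made when a processed transcript was copied back into the genome at a new place. Where a copy is nearly identical to its parent gene, short reads from either can be assigned to the other. Of the 10 genes, 5 were high in NSG tissue. Eno1b encodes an enolase, the glycolytic enzyme that makes phosphoenolpyruvate, and is a retrogene of Eno1. Tpm3-rs7 is a retrogene related to Tpm3, a tropomyosin that runs along actin filaments. Gm10260 is a retrogene related to Rps18, a protein of the small ribosomal subunit. Gm614 is a predicted gene next to Il2rg, the receptor chain shared by several interleukins. Serpina3m belongs to the Serpina3 cluster of protease inhibitors, which also holds the astrocyte gene Serpina3n. The other 5 were low. Pttg1 encodes securin, the inhibitor of the protease that separates sister chromatids. Crym encodes mu-crystallin, a cytosolic protein that binds thyroid hormone. Trim12a is a member of the Trim5 family of antiviral proteins. Ccl21b encodes a form of the chemokine CCL21, which guides cells that carry the receptor CCR7. Atp6v0c encodes the proton-carrying ring subunit of the V-ATPase, the pump that acidifies lysosomes and synaptic vesicles.

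How alike a listed gene and its relative can be was read from the reference genome, a C57BL/6J sequence (GRCm38, GENCODE M21), and not from these mice. Over 459 coding bases Gm10260 and Rps18 differed at 4, an identity of 99.1%. Over 747 coding bases Tpm3-rs7 and Tpm3 differed at 3 (99.6%), and over 402 coding bases Ccl21b and Ccl21a differed at 2 (99.5%). A stretch of each pair is printed 5′ to 3′ on the coding strand because it holds most of the coding bases that differ within the pair, and capitals mark the bases that differ within the pair. The stretch of Gm10260 is at chr13:97760158-97760277 (minus strand, coding bases 312 to 431), with Rps18 at chr17:33952071-33952292 (minus strand, spliced from 2 exons). The stretch of Tpm3-rs7 is at chr14:113314683-113314802 (plus strand, coding bases 8 to 127), with Tpm3 at chr3:90079739-90079858 (plus strand). The stretch of Ccl21b is at chr4:42255929-42256142 (plus strand, spliced from 2 exons, coding bases 75 to 194), with Ccl21a at chr4:42773543-42773756 (minus strand, spliced from 2 exons).
Gm10260: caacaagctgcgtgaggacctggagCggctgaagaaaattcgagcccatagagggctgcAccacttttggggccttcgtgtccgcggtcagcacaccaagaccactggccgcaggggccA
Rps18: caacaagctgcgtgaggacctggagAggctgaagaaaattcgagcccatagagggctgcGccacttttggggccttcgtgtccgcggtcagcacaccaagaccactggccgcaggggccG
Tpm3-rs7: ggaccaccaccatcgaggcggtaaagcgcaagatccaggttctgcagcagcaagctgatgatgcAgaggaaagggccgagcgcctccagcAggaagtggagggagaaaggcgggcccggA
Tpm3: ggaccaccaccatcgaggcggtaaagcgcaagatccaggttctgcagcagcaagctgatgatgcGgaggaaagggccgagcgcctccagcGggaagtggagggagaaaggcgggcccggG
Ccl21b: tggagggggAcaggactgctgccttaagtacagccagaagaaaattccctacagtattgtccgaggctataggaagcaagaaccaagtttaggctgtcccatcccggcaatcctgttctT
Ccl21a: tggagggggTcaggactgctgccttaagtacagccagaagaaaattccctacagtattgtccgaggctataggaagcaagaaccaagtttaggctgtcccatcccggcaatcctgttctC
In the printed stretches 3, 3 and 2 bases differ between the partners. Of all windows of 100 bases along a transcript, 49.8% were identical between Tpm3-rs7 and Tpm3, 39.0% between Gm10260 and Rps18, and 61.8% between Eno1b and Eno1. Every window of Ccl21b also occurred in the genes Gm13304, Gm21541 and Gm10591, which like Ccl21a had 0 counts in all samples. Windows of Pttg1 and Crym occurred in no other transcript, 10.3% of those of Atp6v0c occurred in the pseudogene Atp6v0c-ps2, which was not counted, and 0.413% of those of Trim12a occurred elsewhere. Levels of the 3 retrogenes, of their parents and of Ccl21b are therefore uncertain as to which copy the reads came from.

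All 10 genes lay without overlap between NSG and the other samples in both states. This is what chose them, and it is given with no test. Over all 17031 genes tested, 14.7% did not overlap between the 4 NSG and the 7 other non-stroked samples, 5.97% between the 3 NSG and the 15 other stroked samples, and 2.6% between all 7 and all 22. By the size of the mean log2 difference over all samples, with 0.1 CPM added, Tpm3-rs7, Gm10260 and Eno1b ranked 1, 2 and 3 of all genes tested, Trim12a 7, Pttg1 10, Serpina3m 13, Gm614 16, Crym 20, Ccl21b 57 and Atp6v0c 59.

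**Figure D1:**
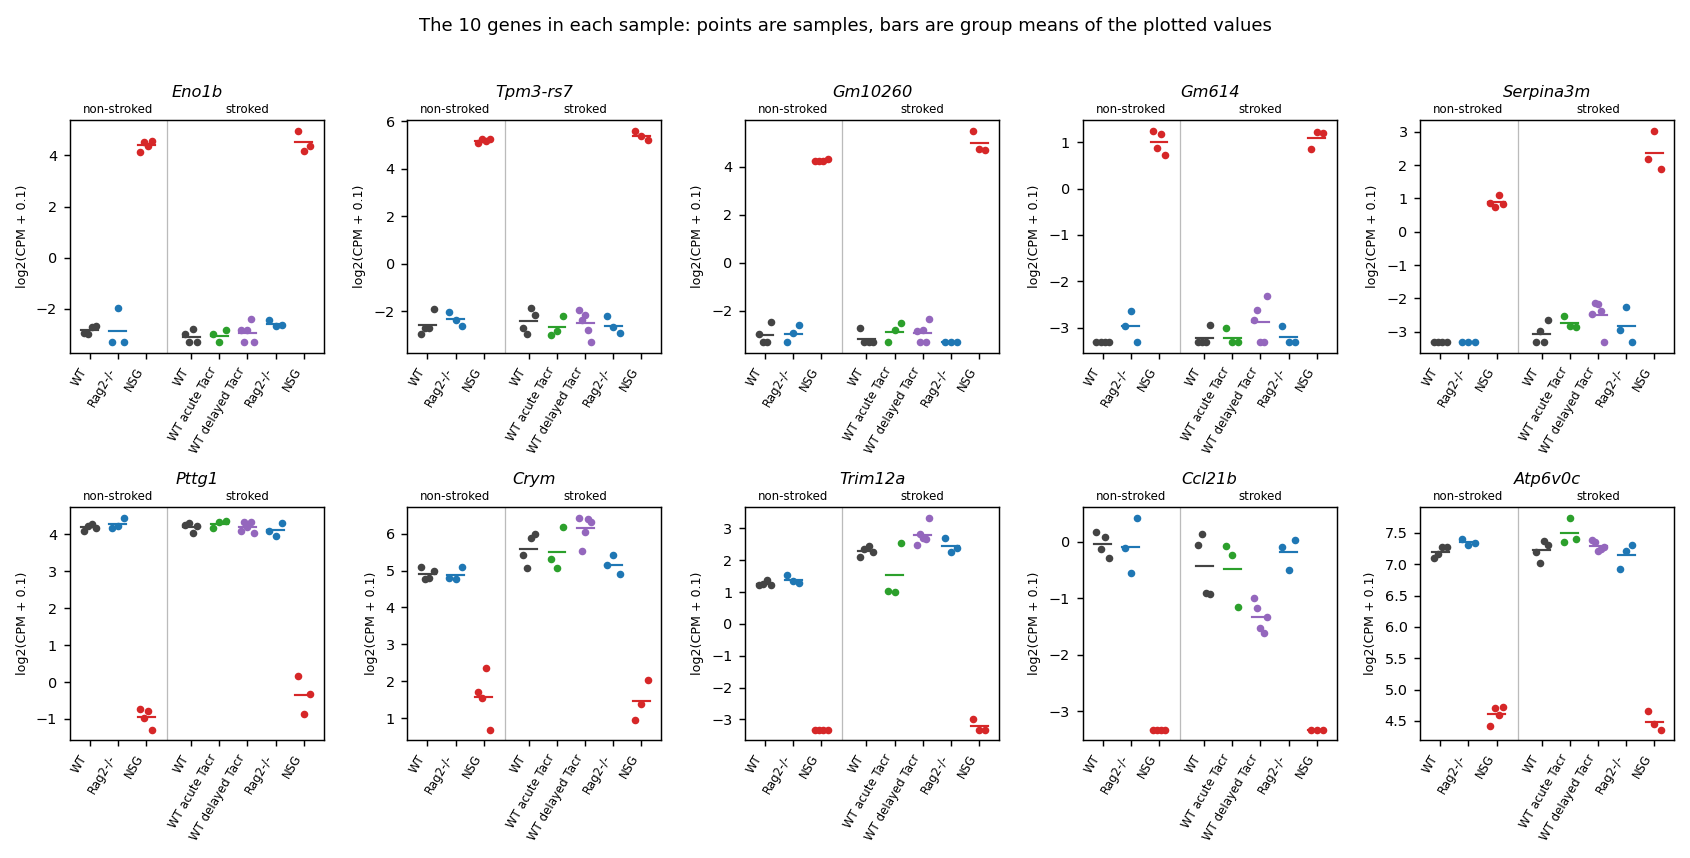
Level of each of the 10 genes as log2(CPM + 0.1) in all 29 samples, by group, with non-stroked groups to the left of the grey line and stroked groups to the right; points are samples and bars are group means of the plotted values. The NSG samples lie above all others for the 5 genes of the upper row and below all others for the 5 of the lower row, in both states.

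The 3 retrogenes were close to absent outside NSG tissue. Eno1b (18:48045335-48048412, plus strand, GRCm38) stood at 17.5, 23.1, 20.7 and 23.8 CPM in non-stroked NSG and at 31.1, 17.9 and 20.8 CPM in stroked NSG samples. It had at most 5 counts in any other non-stroked sample and at most 3 in any other stroked one. The ratio of group means was 472 without stroke, with 11 counts in all 7 other samples. After stroke the pooled ratio was 674, with a 95% interval of 408 to 1206 that covers counting error only, as do all such intervals here. The NSG samples thus formed a group far above the rest, and 1 stroked NSG sample was higher than all other NSG samples. Tpm3-rs7 (14:113314608-113316754, plus strand) stood at 33.9, 37.8, 35.7 and 37.7 CPM in non-stroked NSG and at 48.5, 41.9 and 36.5 CPM in stroked NSG samples. Other samples had at most 6 counts, and the ratio of means was 425 without stroke and 537 with it. No NSG sample came near the other samples. Gm10260 (13:97760072-97760632, minus strand) stood at 18.7, 18.6, 19.0 and 19.7 CPM in non-stroked NSG and at 45.2, 26.5 and 26.1 CPM in stroked NSG samples. Other samples had at most 3 counts, and the pooled ratio was 682 (331 to 1698) without stroke and 1580 (831 to 3458) with it. Its 4 non-stroked NSG values were nearly equal, and all 3 stroked ones were higher.

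The parent genes were lower in NSG tissue. They were not themselves chosen, but reads can be assigned to either copy. Their p-values are therefore not independent of the choice of the retrogenes. Eno1 stood at 175, 199, 198 and 200 CPM in non-stroked NSG samples and had a lowest value of 252, a median of 260 and a highest value of 298 CPM in the 7 other non-stroked samples. The groups did not overlap, and Eno1 fell by 0.43 ± 0.09 (log2 fold change ± SE) in NSG against WT (edgeR quasi-likelihood test, adjusted p = 0.00298). Tpm3 stood at 56.2, 59.1, 59.8 and 58.4 CPM in NSG and at 106, 112 and 119 CPM (lowest, median, highest) in the others, a fall of 0.93 ± 0.07 (adjusted p = 2.4131e-10). Rps18 stood at 21.3, 24.5, 25.8 and 24.6 CPM in NSG and at 44.3, 47.5 and 54.2 CPM in the others, a fall of 1.02 ± 0.16 (adjusted p = 7.3902e-05). For Tpm3 and Rps18, too, every NSG sample was below every other non-stroked sample. Of all genes tested, 9.76% were called at an adjusted p below 0.05 in non-stroked NSG against WT and 12.9% in stroked NSG against WT. After stroke the parents were again called lower against WT, with log2 differences of -0.49 for Eno1 (adjusted p = 0.00188), -0.83 for Tpm3 (adjusted p = 1.1293e-08) and -1.02 for Rps18 (adjusted p = 0.000235). Against all 15 other stroked samples, Tpm3 did not overlap, while Eno1 and Rps18 did.

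Retrogene and parent together differed less between NSG and the rest than the parent alone without stroke. The direction of this shift follows from the choice of the retrogenes. They were chosen as high in NSG and were close to absent elsewhere, so that adding them raises the ratio of NSG to the others. Which copy the reads came from was not tested. The sum of Tpm3-rs7 and Tpm3 was 94.7 ± 3.07 CPM in non-stroked NSG (SD, n = 4) and 112 ± 5.74 CPM in the others (n = 7), a ratio of 0.848, while the ratio for Tpm3 alone was 0.524. After stroke the ratio of the sums was 0.982, and 0.905 against the Imm2 samples alone, with overlapping groups in both cases. The sum of Gm10260 and Rps18 was 43.0 ± 2.15 against 48.6 ± 3.73 CPM, a ratio of 0.885 with overlap, and the ratio for Rps18 alone was 0.495. After stroke the ratio of these sums was 0.891, and 1.11 against the Imm2 samples alone, with overlap in both cases. For Eno1b and Eno1 the sum was 214 ± 14.6 against 268 ± 16.6 CPM, a ratio of 0.800 without overlap, and 0.721 for Eno1 alone. With stroke the ratio of the Eno1 sums was 0.805, and 0.858 against the Imm2 samples alone, with overlap in both cases. The retrogene held 8.92 to 10.6% of the summed CPM, not corrected for length, for Eno1b, 37.4 to 44.5% for Tpm3-rs7 and 42.5 to 47.1% for Gm10260 in the 7 NSG samples. It held under 0.2% of it in all other samples for each pair, the highest being 0.182% for Tpm3-rs7. In stroked tissue 1 NSG sample set the spread of the sums, with 310 CPM for the Eno1 pair against 201 and 225 CPM, and 101 CPM for the Rps18 pair against 56.3 and 58.5 CPM.

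**Figure D2:**
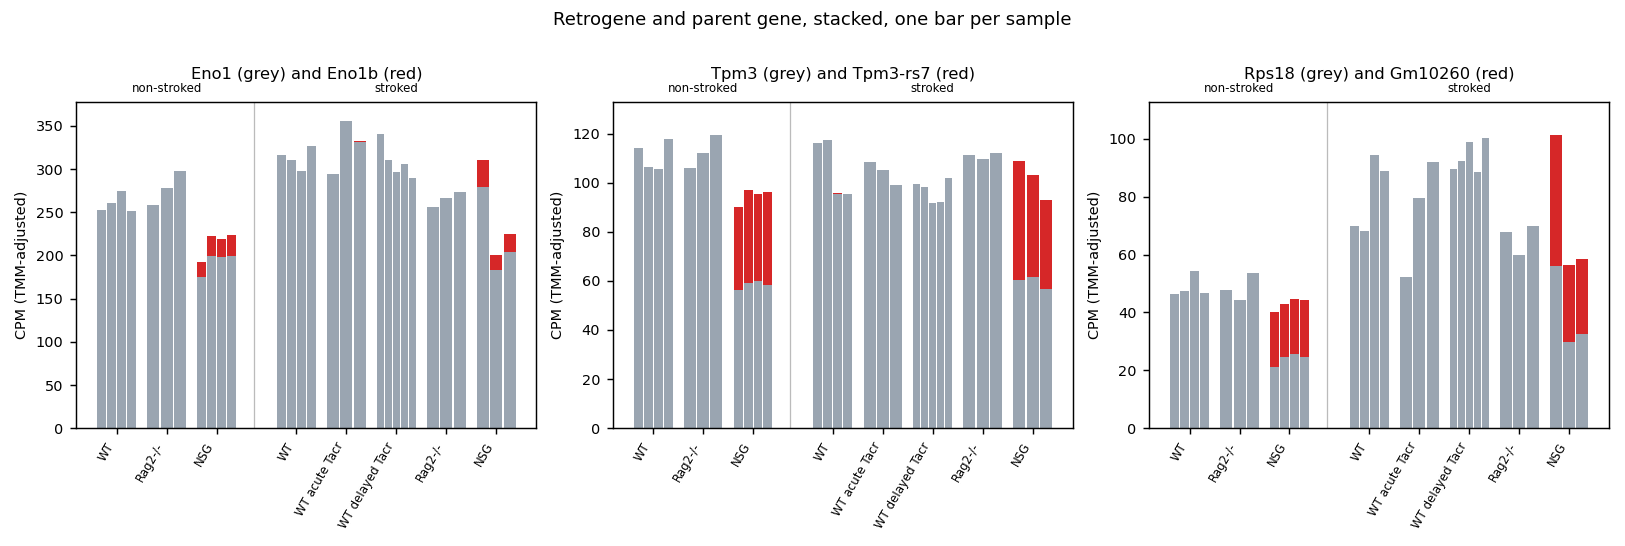
CPM of parent gene (grey) and retrogene (red), stacked, with 1 bar per sample and groups along the horizontal axis. In the 7 NSG samples the red part makes up 8.92 to 10.6% of the bar for Eno1b, 37.4 to 44.5% for Tpm3-rs7 and 42.5 to 47.1% for Gm10260; it is hardly visible in all others.

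Gm614 (X:101261376-101263992, minus strand) was counted at a low but steady level in NSG tissue. Its level was 2.28, 1.75, 2.18 and 1.55 CPM in non-stroked NSG and 1.72, 2.22 and 2.20 CPM in stroked NSG samples. No other sample had more than 2 counts, and the pooled ratio was 163 (55.1 to 794) without stroke and 110 (55.0 to 258) with it. The NSG values of the 2 states covered the same range. Gm614 starts 386 bases beyond the end of Il2rg (X:101264378-101268255), downstream of it on the same strand. A readthrough gene, Gm20489 (X:101261405-101269023), spans Il2rg and overlaps most of Gm614. Of the 100-base windows of Gm614, 68.7% also lay in Gm20489, so reads from there cannot be told apart. Gm20489 stood at 2.22, 1.68, 2.04 and 1.49 CPM in non-stroked NSG, and at 0.245, 0.357 and 0.477 CPM (lowest, median, highest) in the 7 other non-stroked samples. The groups did not overlap, and the log2 difference between NSG and WT was 2.34 ± 0.39 (adjusted p = 0.000134).

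Il2rg and Gm20489 rose after stroke in WT and Rag2-/- tissue and did not pass the test in NSG tissue. Il2rg stood at 0.854, 0.871, 0.716 and 0.742 CPM in non-stroked WT and at 3.46, 2.11, 2.52 and 3.30 CPM in stroked WT samples, and rose by 1.84 ± 0.33 (adjusted p = 0.000282). It rose by 1.78 ± 0.38 in Rag2-/- (adjusted p = 0.00403). In NSG the values were 1.05, 0.863, 0.822 and 0.681 CPM without stroke and 0.784, 0.914 and 0.979 CPM with it, a change of 0.06 ± 0.37 (adjusted p = 0.926). Stroked NSG samples lay below all stroked WT samples, with a log2 difference of -1.67 ± 0.36 (adjusted p = 0.00263), and non-stroked ones overlapped with WT. The difference between the NSG and WT responses of Il2rg was -1.78 ± 0.49 and did not pass the test (adjusted p = 0.156). Gm20489 rose after stroke by 1.75 in WT (adjusted p = 0.00234) and by 1.82 in Rag2-/- (adjusted p = 0.0141), and its change in NSG was -0.03 (adjusted p = 0.970), with a difference of responses of -1.77 (adjusted p = 0.198).

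**Figure D3:**
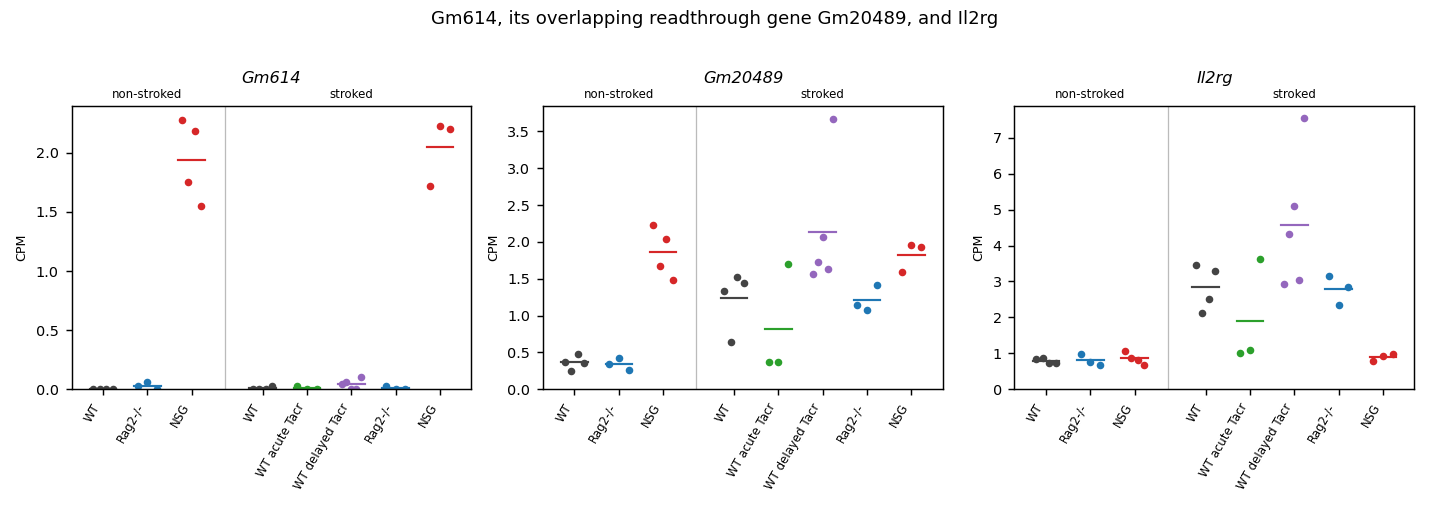
CPM of Gm614, of the readthrough gene Gm20489 that overlaps it, and of Il2rg in all samples by group; points are samples and bars are group means. Gm614 is at 1.55 to 2.28 CPM in NSG samples alone, Gm20489 is above the other non-stroked groups in NSG, and Il2rg is at 0.784 to 0.979 CPM in stroked NSG samples, below every other stroked sample.

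Serpina3m (12:104338486-104394257, plus strand) had no count in any of the 7 other non-stroked samples. It stood at 1.73, 1.57, 2.04 and 1.67 CPM in non-stroked NSG, at least 19.6-fold higher than 3 counts per library would give. In stroked NSG samples it stood at 4.40, 8.08 and 3.61 CPM, against at most 4 counts in any other stroked sample, a ratio of means of 100. Both NSG groups lay above all other samples, and the stroked NSG samples above the non-stroked ones. Serpina3m overlaps Serpina3k, with which it shared 6.09% of its 100-base windows, and Serpina3k had 1 count in the whole series. The neighbouring Serpina3n, an acute-phase gene of astrocytes, stood at 45.7, 42.2, 59.2 and 45.3 CPM in non-stroked NSG and at 18.1, 16.9, 19.4 and 16.8 CPM in non-stroked WT samples. It was higher in NSG without overlap, by 1.43 ± 0.41 (adjusted p = 0.0244), while after stroke the difference was 0.11 ± 0.42 (adjusted p = 0.894).

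Among the genes low in NSG tissue, Pttg1 (11:43420250-43426251, minus strand) was expressed at a constant level elsewhere. It stood at 16.8, 18.5 and 21.7 CPM (lowest, median, highest) in the 7 other non-stroked samples and at 15.5, 18.5 and 20.3 CPM in the 15 other stroked samples. NSG samples had 0.497, 0.406, 0.482 and 0.309 CPM without stroke and 1.01, 0.445 and 0.704 CPM with it, from 10 to 40 counts each. The ratio of means was 44.0 without stroke and 25.5 with it. No NSG sample came near the others, and no other group stood apart from the rest.

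Crym (7:120186380-120202111, minus strand) was lower in NSG tissue but still counted in every sample. It stood at 3.16, 2.82, 4.99 and 1.52 CPM in non-stroked NSG and 1.85, 2.50 and 3.98 CPM in stroked NSG samples. The 7 other non-stroked samples had 27.1, 27.9 and 34.1 CPM and the 15 other stroked samples 30.1, 46.5 and 85.9 CPM (lowest, median, highest). The means differed 9.59-fold without stroke and 19.6-fold with it, and the latter fell to 13.4-fold when only the 6 other stroked Imm2 samples were taken. No NSG value came near the others, and the upper values among the other stroked samples were those of TF samples.

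Trim12a (7:104299894-104315466, minus strand) had 0 counts in all 4 non-stroked NSG samples and 1, 0 and 0 counts in the stroked ones. The other non-stroked samples had 2.23, 2.35 and 2.80 CPM and the other stroked samples 1.91, 5.35 and 9.97 CPM (lowest, median, highest). NSG tissue was at least 27.8-fold lower without stroke, taking 3 counts per library as the limit, and the pooled ratio after stroke was 603 (108 to 23828). Ccl21b (4:42255767-42256432, plus strand) had 0 counts in all 7 NSG samples. It had 0.577, 0.821 and 1.24 CPM in the other non-stroked samples and 0.226, 0.435 and 1.0 CPM in the other stroked ones, from 5 to 39 counts each. NSG tissue was at least 10.2-fold lower without stroke and at least 6.24-fold lower with it. The summed level of 6 markers of lymphatic endothelium and meninges, where CCL21 is made, was 59.6 to 118 CPM in non-stroked NSG and 63.7 to 87.4 CPM in the other non-stroked samples, with overlap. In WT the mean of this sum was 77.9 CPM without stroke and 246 CPM with it. Ccl21b changed there by -0.34 ± 0.32 (edgeR, adjusted p = 0.448), so that the sum need not follow the cells that make CCL21. In bulk tissue fewer cells of a type and less RNA per cell cannot be told apart.

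Atp6v0c (17:24163866-24169702, minus strand) was lower in NSG tissue and well counted in every sample. It stood at 136, 155 and 170 CPM in the other non-stroked samples and at 121, 158 and 213 CPM in the other stroked samples (lowest, median, highest). NSG samples had 21.2, 26.2, 24.1 and 26.4 CPM without stroke and 25.1, 21.7 and 20.5 CPM with it. The means differed 6.30-fold without stroke and 7.01-fold with it. At least 669 counts lay behind every value, and the groups were far apart in both states.

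The stroke response within each strain had no part in the choice of the 10 genes, so that it could be tested. Genes with at most 3 counts in every sample of a compared group could not be read there. The 5 genes high in NSG entered these tests through their NSG counts alone. Tpm3-rs7 is 1 of these, with at most 6 counts in any sample outside NSG. It counts as readable by this rule in WT, in Rag2-/-, with delayed tacrolimus and in the difference of responses. Its lack of a call there says nothing. In WT tissue 2 of the 6 readable genes were called, where 26.9% of all genes were. Trim12a stood at 2.25, 2.29, 2.49 and 2.23 CPM without stroke and at 4.22, 4.97, 5.35 and 4.64 CPM with it. All 4 stroked WT samples were above the non-stroked ones, and Trim12a rose by 1.05 ± 0.26 (adjusted p = 0.00599). Crym stood at 34.1, 27.1, 27.9 and 31.4 CPM without stroke and at 42.4, 33.7, 59.1 and 64.1 CPM with it. It rose by 0.72 ± 0.26 (adjusted p = 0.0428), with 1 stroked sample inside the non-stroked range. The summed level of 5 striatal markers was 189 to 354 CPM in non-stroked WT, 250 to 714 CPM in stroked WT and 499 to 1069 CPM in delayed tacrolimus samples, where Crym was at 46.5 to 85.9 CPM, and its part in the Crym values was not tested. The 2 highest stroked WT values of Crym were the TF samples, which are also the 2 without Ddx3y counts. With the title prefix as a covariate the change of Crym was 0.39 (adjusted p = 0.373), while that of Trim12a was 0.84 (adjusted p = 0.0513). With Imm2 samples alone Crym changed by 0.34 (adjusted p = 0.484) and Trim12a by 0.99 (adjusted p = 0.00685). Crym also lost its call without any single WT_ctrl sample, without WT_stroke sample 3 or 4, and without any single Rag2-/- sample, with a change of 0.58 to 0.79 and an adjusted p of 0.0502 to 0.156 in these cases.

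In Rag2-/- tissue Trim12a alone was called of 6 readable genes, where 8.23% of all genes were. It stood at 2.80, 2.43 and 2.35 CPM without stroke and at 6.43, 4.68 and 5.18 CPM with it. The groups did not overlap, and the rise was 1.10 ± 0.30 (adjusted p = 0.0256). The call was lost without Rag2_ctrl sample 1, 2 or 4 or Rag2_stroke sample 1, with a rise of 0.96 to 1.18 and an adjusted p of 0.0645 to 0.139. In NSG tissue, where Trim12a was not measurable, 3 of 8 readable genes were called, where 21.9% of all genes were. Serpina3m rose by 1.61 ± 0.37 (adjusted p = 0.00424), Gm10260 by 0.78 ± 0.27 (adjusted p = 0.0386) and Pttg1 by 0.76 ± 0.22 (adjusted p = 0.0154). Of these, only Pttg1 overlapped between the states, and its values stayed at or below 1.01 CPM. Without NSG_stroke sample 1 the change was 0.46 for Gm10260 (adjusted p = 0.346) and 0.40 for Pttg1 (adjusted p = 0.438). Pttg1 had an adjusted p of 0.0586 without NSG_ctrl sample 4, and Gm10260 one of 0.0672 to 0.0796 without any single non-stroked NSG sample. With Ddx3y as a covariate the change was 1.28 for Serpina3m (adjusted p = 0.0784) and 0.52 for Gm10260 (adjusted p = 0.335). The parent Rps18 rose after stroke by 0.71 in NSG (adjusted p = 0.00479), as the retrogene Gm10260 did, and by 0.72 in WT (adjusted p = 0.00189). In Rag2-/- its change was 0.44 and was not called (adjusted p = 0.148). In stroked NSG samples Rps18 stood at 56.1, 29.8 and 32.5 CPM, highest in NSG_stroke sample 1. In stroked WT it stood at 69.9 and 68.3 CPM in the Imm2 samples and at 94.3 and 88.8 CPM in the TF samples.

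**Figure D4:**
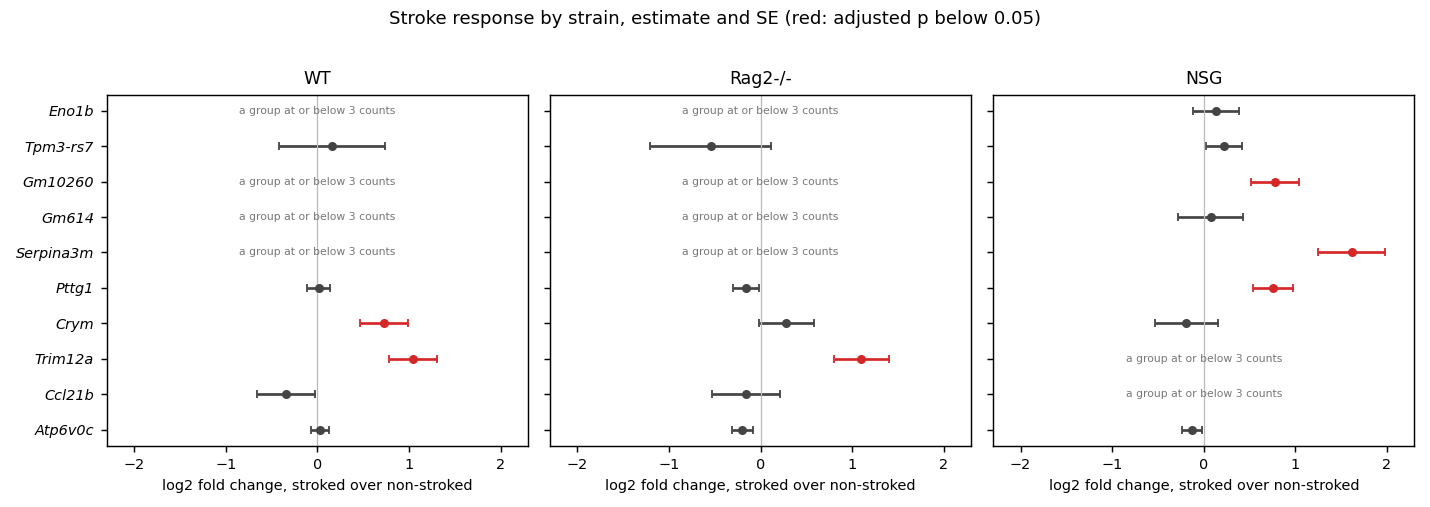
Log2 fold change of stroked over non-stroked tissue for each of the 10 genes in WT, Rag2-/- and NSG mice; points are edgeR estimates, bars are 1 SE, and red marks an adjusted p below 0.05. Trim12a is red in WT and Rag2-/-, Crym in WT, and Serpina3m, Gm10260 and Pttg1 in NSG. No estimate is drawn where a group had at most 3 counts in every sample, and those of Tpm3-rs7 in WT and Rag2-/- rest on at most 6 counts per sample.

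The difference between the NSG and the WT stroke response was called for 0 of the 4 genes that could be read (edgeR quasi-likelihood test), where 0.0294% of all genes were. DESeq2 called 0 as well. At an unadjusted p below 0.05 there were 2, Pttg1 with a difference of 0.74 ± 0.25 (adjusted p = 0.241) and Crym with -0.91 ± 0.43 (adjusted p = 0.386). The 4 genes were Pttg1, Crym, Atp6v0c and Tpm3-rs7, which itself had few counts in WT.

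Rag2-/- mice, like NSG mice, lack mature T and B cells. In Rag2-/- against WT, 0 of 6 readable genes were called without stroke and 0 of 6 with it (edgeR), where 0.00587% of all genes were in each case, and DESeq2 called 0 in both. Of these 6, which include Tpm3-rs7 with its few counts, 0 had an unadjusted p below 0.05 in either state. The estimates for Pttg1, Crym, Trim12a, Ccl21b and Atp6v0c were 0.09 ± 0.13, -0.02 ± 0.28, 0.13 ± 0.29, 0.00 ± 0.35 and 0.15 ± 0.10 without stroke. With stroke they were -0.08 ± 0.13, -0.47 ± 0.29, 0.18 ± 0.28, 0.18 ± 0.35 and -0.08 ± 0.10. The largest of these in size was that of Crym with stroke.

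Tacrolimus was likewise compared with untreated WT stroke. In acutely treated mice 0 of 5 readable genes were called (edgeR), where 0% of all genes were, DESeq2 called 0, and 2 had an unadjusted p below 0.05. Trim12a stood at 1.95, 1.91 and 5.72 CPM, a difference of -0.59 ± 0.29 (adjusted p = 0.391). The first 2 of these samples were below all non-stroked WT samples, and they are the 2 with low Serpina3n. Without the third sample the difference was -1.30 (adjusted p = 0.00154), and with the third alone it was 0.26 ± 0.27 (adjusted p = 0.989), taking its spread to be like that of the other groups. Atp6v0c stood at 163, 213 and 169 CPM, a difference of 0.27 ± 0.10 (adjusted p = 0.311), or 0.17 ± 0.14 (adjusted p = 0.989) with the third sample alone. With the delayed start 0 of 6 readable genes were called (edgeR), where again 0% of all genes were, DESeq2 called 0, and 3 had an unadjusted p below 0.05. Ccl21b stood at 0.402, 0.346, 0.248, 0.226 and 0.298 CPM, below all 4 untreated stroked samples at 0.858, 1.0, 0.435 and 0.428 CPM. The difference was -1.16 ± 0.34 (adjusted p = 0.154). The 2 lower untreated samples were TF and had no Ddx3y counts, like all treated ones, while the 2 higher were Imm2 with Ddx3y counts. Without either of the 2 lower ones the difference was called, at -1.31 without WT_stroke sample 3 (adjusted p = 0.0494) and at -1.33 without sample 4 (adjusted p = 0.0354). Crym and Trim12a, the other genes at that level, had differences of 0.54 (adjusted p = 0.234) and 0.55 (adjusted p = 0.221).

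Genes related to the 10 by function or position were compared in the same way. Of 84 tested genes in 8 lists, 14 (16.7%) were called in non-stroked NSG against WT, 4 higher and 10 lower, and 13 (15.5%) in stroked NSG against WT, 3 higher and 10 lower, beside 9.76% and 12.9% of all genes. The second count was 8 without WT_stroke sample 3 or 4. The lists include genes next to the 10 and the parents themselves, and were made with results of these data known. Of the genes called higher, Serpina3i without stroke and Trim34b in both states had at most 3 counts in every WT sample compared. Such genes were not read among the 10. In glycolysis, 18 listed symbols gave 19 tested entries, which are counted in the same way among the 84. Of the 19, 3 were lower and 0 higher without stroke: Eno1, Pfkp, with a log2 difference of -0.27 (adjusted p = 0.00930), and the lactate dehydrogenase subunit Ldhb, with -0.51 (adjusted p = 0.00705). The list median was 0.04, beside 0.01 over all genes tested. After stroke 2 were lower, Eno1 and Pfkp, and 2 higher, Gpi1 and the neuronal enolase Eno2, which was higher by 0.36 (adjusted p = 0.0230). Of 4 tropomyosins, Tpm3 alone was called in both states.

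Of 4 tested genes of the Serpina3 cluster 2 were called higher without stroke, Serpina3n and Serpina3i, while after stroke edgeR called 0, with 1 at an unadjusted p below 0.05. Serpina3i had 0 counts in non-stroked WT and 6 to 13 counts in non-stroked NSG samples, and 8 to 26 counts in stroked WT against 20 to 87 in stroked NSG samples. Among 11 genes of securin's pathway and cohesin, 1 was called lower without stroke, the spindle checkpoint kinase gene Bub1b. It stood at 0.530 ± 0.242 CPM in NSG against 2.33 ± 0.412 CPM in WT (SD, n = 4 each), a fall of 2.12 ± 0.33 (adjusted p = 6.8739e-05), and fell by 2.90 with stroke (adjusted p = 5.0312e-06). Separase (Espl1), the protease that Pttg1 inhibits, differed by 0.23 (adjusted p = 0.665) and -0.22 (adjusted p = 0.640) in the 2 states. Of 12 genes of thyroid hormone handling, Dio2, which activates the hormone, fell by 0.73 (adjusted p = 0.00179) and the receptor gene Thrb fell by 0.43 (adjusted p = 0.0365) without stroke. After stroke Dio2 fell by 0.58 (adjusted p = 0.0201) and Rxra fell by 0.29 (adjusted p = 0.0149), and the medians of this list were -0.12 and -0.10.

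In the Trim cluster of chromosome 7, 1 of 10 genes was called higher and 2 lower without stroke. Trim12c, the closest in name to Trim12a, stood at 0.819, 0.635, 0.567 and 0.619 CPM in non-stroked NSG and at 2.19, 2.37, 2.17 and 2.20 CPM in non-stroked WT samples. It fell without overlap by 1.75 ± 0.35 (adjusted p = 0.00108), and fell by 2.74 after stroke (adjusted p = 1.41e-05). Trim68 fell by 1.08 (adjusted p = 3.0055e-07). Trim34b was higher, with 10 to 16 counts in non-stroked NSG and at most 1 in non-stroked WT samples. After stroke Trim34a also fell by 1.17 (adjusted p = 0.0462), so that 3 of 10 were lower. Of the Ccl21 relatives and receptors, 3 were tested, and Ccl27a, a chemokine gene on the same chromosome, fell by 0.73 without stroke (adjusted p = 0.0214). After stroke edgeR called 0 of the 3, with 1 at an unadjusted p below 0.05. Of 21 other subunit genes of the V-ATPase, 1 was called in non-stroked tissue, and 0 in stroked tissue by edgeR, with 2 at an unadjusted p below 0.05. The gene called was Atp6v1c2, at 1.68 ± 0.764 CPM in NSG against 0.280 ± 0.0762 CPM in WT (SD, n = 4 each), higher by 2.57 ± 0.46 (adjusted p = 0.000317). The list medians of the V-ATPase were -0.03 and 0.04.

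Genes that lie close to the 10 were compared between NSG and WT within 500000 bases on either side. Of 95 tested neighbours, 18 (18.9%) were called without stroke, 10 higher and 8 lower, and 22 (23.2%) with stroke, 11 higher and 11 lower, beside 9.76% and 12.9% of all genes. The called neighbours include genes with at most 3 counts in every sample of a compared group, which were not read among the 10. These were Serpina1c, Serpina3i and Trim34b without stroke, and Serpina1c, Trim34b and 1520401A03Rik with it. Around Eno1b and Tpm3-rs7 no tested gene lay in this range, and around Gm10260 1 did, which was not called. In non-stroked tissue 0 of 7 neighbours of Pttg1 and 0 of 13 of Crym were called by edgeR, and 0 of either had an unadjusted p below 0.05. The gene next to Pttg1, Slu7, starts 7493 bases away and differed by -0.18 ± 0.09 (adjusted p = 0.252). Around Atp6v0c 10 of 38 were called, 4 higher and 6 lower, yet the nearest on either side, Amdhd2 and Tbc1d24, differed by 0.14 (adjusted p = 0.503) and 0.08 (adjusted p = 0.766). Around Serpina3m 3 of 7 were called, all higher, among them Serpina1c, with 5 to 16 counts in non-stroked NSG and 0 in non-stroked WT samples. Around Gm614 the readthrough gene was the 1 of 16 called without stroke, and 5 of 16 were lower with it, among them Il2rg and the nearest gene on the other side, Foxo4, with a log2 difference of -0.32 (adjusted p = 0.0241). Around Trim12a 2 of 9 and around Ccl21b 2 of 4 were called without stroke.

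**Figure D5:**
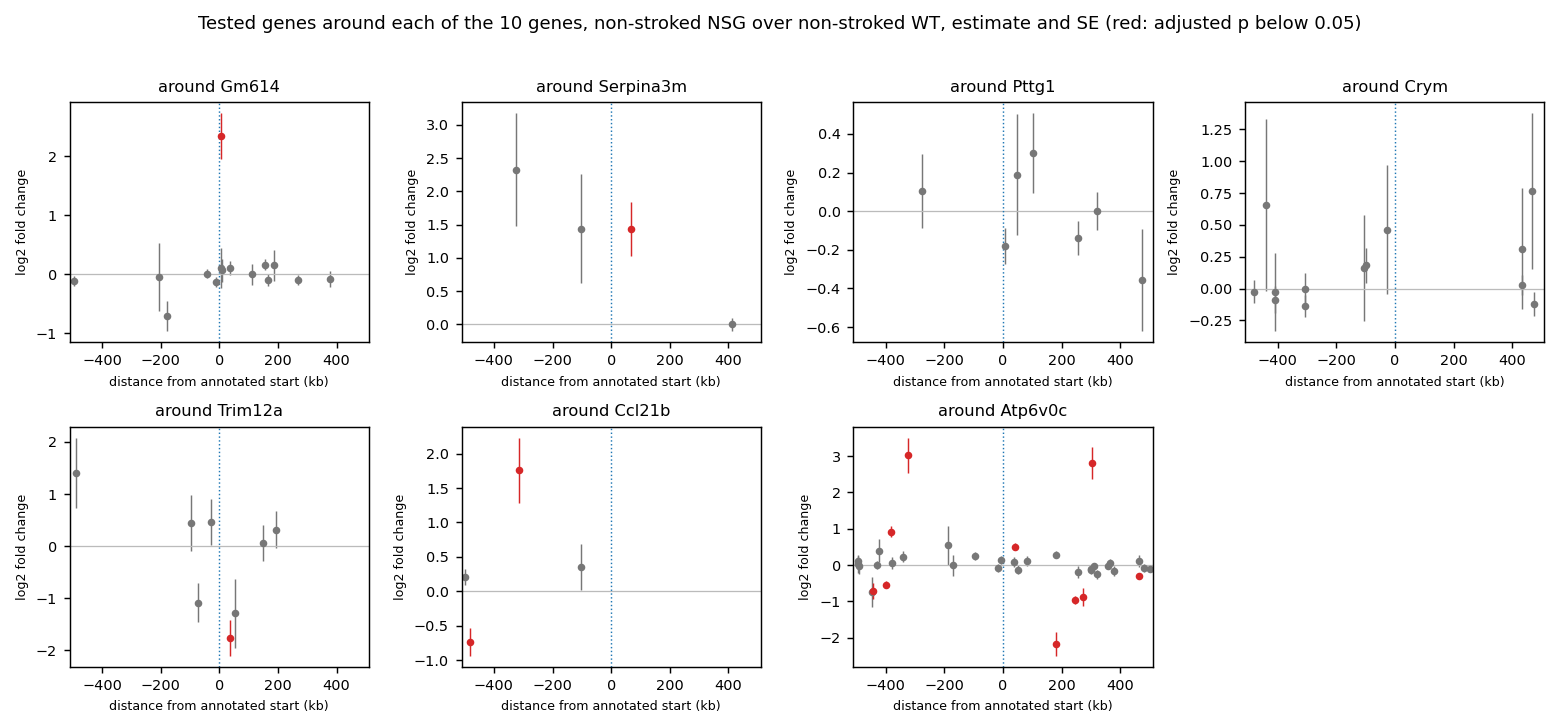
Log2 fold change of non-stroked NSG over non-stroked WT for tested genes by distance from the annotated start of 7 of the 10 genes (dotted line), with edgeR estimates as points, 1 SE as bars and red for an adjusted p below 0.05. No red point lies around Pttg1 and Crym, while 10 of 38 are red around Atp6v0c; genes with at most 3 counts in every sample of a compared group are not drawn (3 around Serpina3m, 1 each around Gm614 and Trim12a).

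Other genes shared the pattern of the 10. By the mean log2 difference, among genes without overlap between all NSG and all other samples, the 5 most alike on the high side were Gm20075, AC117239.2, Zfp990, Eif3j2 and Gm4737. Gm20075 stood at 7.68 to 10.9 CPM in NSG and had at most 7 counts elsewhere, and AC117239.2 stood at 8.28 to 20.2 CPM with at most 7 counts elsewhere. Gm20075, AC117239.2 and Gm4737 carry the retrogene tag. On the low side the 5 most alike were mt-Nd3, Gm5148, Rec8, Gm45793 and H2-T22. The mitochondrial gene mt-Nd3, a subunit of respiratory complex I, had 0 or 1 count in NSG samples and 82 to 557 counts elsewhere. Rec8, a meiotic cohesin, had at most 4 counts in NSG samples and 76 to 188 elsewhere, and the class I gene H2-T22 stood at 0.508 to 1.74 CPM against 10.2 to 29.9 CPM. Of the 17031 genes tested 19 carry the retrogene tag. Among genes without overlap it was carried by 6 of the 194 that were higher in NSG and by 0 of the 249 that were lower, and among the 10 genes by 3 of 5 and 0 of 5.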

How the data were processed

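Total RNA of cortical tissue was sequenced at a core facility after polyA selection with a stranded kit, 1 library per sample and 29 in all. The deposited values are raw read counts per gene, made by the authors. The aligner, the counting tool and the genome build of the authors were not given in the sources used here, nor was the read length. Gene names and positions come from GENCODE M21 (GRCm38), in which 25712 of 25746 identifiers were found and 34 were not. The coordinates printed are those of this annotation, since the count tables hold none.

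The counts were analysed in R 4.3.3 with edgeR 4.0.16 (limma 3.58.1). Genes with low counts were removed by filterByExpr with the 8 groups, which left 17031 genes, library sizes were adjusted by TMM, and 1 quasi-likelihood fit of 8 groups over 29 samples gave all comparisons. Genes at a Benjamini-Hochberg adjusted p below 0.05 over all genes tested were called, with no minimum fold change. DESeq2 1.42.0 was run as an alternative. CPM are counts per 1000000 of the TMM-adjusted library size, and ± after a log2 fold change is its SE, derived from the F statistic. Levels are not corrected for gene length, so that they were compared between samples and not read as amounts of transcript between genes. Limits of at least a given fold take 3 counts per library for a gene with 0 counts, and pooled ratios of groups with very few counts have exact 95% intervals. The difference between NSG and the other samples, which chose the genes, was only described.

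The members and the gene lists were chosen with earlier results of these data known. The genes named are the 10 members, their closest relatives in sequence, their nearest tested neighbours, at most 4 genes of each list, the genes altered in the strains, and the 5 genes most alike in each direction. Serpina1c, Espl1, Gpi1, Eno2, Hba-a1 and Hba-a2 were named after their values were seen. Relatives were taken from the share of identical windows of 100 bases in transcripts, and not from protein identity as had been planned, because protein sequences were not used here. Sex was represented by Ddx3y, since Xist was not among the genes counted. Replicate numbers are those of the sample titles in the non-stroked groups, and in the stroked groups they only name the samples. In samples with the same number, deviations from the group means correlated at -0.258 to 0.108 in the non-stroked groups, so that the numbers were not taken as pairs. The script was tested on simulated data with known changes. Total counts ranged from 17789044 to 43403413 per sample, which sets what a low count can resolve.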

Additional observations from a re-analysis of the deposited data

Results flagged for a closer look

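For the 10 genes and 5 related ones, 47 sets of 4 or 5 samples of a group were examined. The highest or lowest sample of each was compared with the rest of its group, and 3 stood apart, where chance gives about 1 in 20. None was a value of the 10 genes themselves. Eno1 was lowest in NSG_ctrl sample 1, at 175 CPM, with the other 3 at 198 to 200 CPM. Rps18 was highest in WT_ctrl sample 4, at 54.2 CPM, with the other 3 at 46.4 to 47.5 CPM. Gm20489 was highest in delayed tacrolimus sample 5, at 3.67 CPM, the sample that was also highest for Trim12a at 9.97 CPM. The cause was not tested in any of these cases.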

How the results depend on the processing

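Of 807 values under alternatives, 742 kept their direction and side of the threshold or stayed close to the value reported, 60 no longer passed, 3 newly passed, 2 moved and 0 reversed. The absence of overlap between NSG and other samples held for 10 of 10 genes under every alternative tried. This absence chose the genes, and leaving out samples cannot create overlap, so that it is no check of the difference. The 2 values that moved were descriptive, the log2 difference of Eno1b in non-stroked tissue to 9.61 without Rag2_ctrl sample 2 and that of Tpm3-rs7 in stroked tissue to 9.71 with Imm2 samples alone. With a minimum log2 fold change of 1, the genes called among the 10 after stroke numbered 1 in WT and 1 in NSG, and the list genes called numbered 7 in non-stroked and 4 in stroked NSG against WT, since this rule calls fewer genes by construction. The count in WT after stroke was 0 with the title prefix as a covariate, 1 with Imm2 samples alone and 1 with Ddx3y as a covariate, and that in NSG was 1 with Ddx3y. The cause was not tested. Without 1 sample at a time the counts ranged from 1 to 2 in WT, from 0 to 1 in Rag2-/-, from 1 to 3 in NSG (1 without NSG_stroke sample 1 or NSG_ctrl sample 4), from 0 to 1 for acute tacrolimus (1, Trim12a, without acute sample 3) and from 0 to 1 for delayed tacrolimus (1, Ccl21b, without WT_stroke sample 3 or 4). The list genes called ranged from 12 to 18 without stroke and from 8 to 19 with it. With the replicate number as a block, 0 of the 10 genes were called in Rag2-/- against WT without stroke and 12 list genes in NSG against WT, the same as 0 and 12 without the block in the same samples. Over all genes the block gave 36 calls against 1 for Rag2-/- against WT and 859 against 1121 for NSG against WT. No value with Imm2 samples alone could be had for delayed tacrolimus, whose samples are all TF. With acute tacrolimus samples 1 and 2 left out, 0 genes were called and Trim12a turned from -0.59 to 0.26. This alternative and those for list genes and for sums of retrogene and parent were added after the data were seen. Depth limits Pttg1 in NSG, Ccl21b and Gm614, which had at most 90 counts in a library of the group concerned, and the genes at 0.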

Other observations

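The 2 further entries of Ccl21b, on unplaced scaffolds of the reference, had at most 1 and 0 counts in any sample. Among markers of other tissues, the alpha-globin genes Hba-a1 and Hba-a2, near-identical copies, differed in opposite directions in NSG tissue. Hba-a1 stood at 3.95, 26.9, 6.18 and 7.02 CPM in non-stroked NSG and at 1.57, 0.571, 3.79 and 3.41 CPM in non-stroked WT samples. The groups did not overlap, but 1 NSG sample was far above the others. Hba-a2 had 1 to 4 counts in non-stroked NSG samples and 16 to 96 in non-stroked WT samples. Reads of the 2 copies can be assigned to either, as for the retrogenes. Prkdc, altered in NSG mice, fell after stroke in NSG by 0.44 ± 0.15 (adjusted p = 0.0328) and changed by 0.06 ± 0.14 in WT (adjusted p = 0.755), and the difference between these responses was not called (adjusted p = 0.313).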
